A study of Mus musculus with 18 samples.

Results

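To follow antigen presentation in the maturing mouse heart, 10 genes of the major histocompatibility complex (MHC) pathways were read in every deposited single-cell matrix, 10 of 35808 nuclear genes. They were chosen by name, as the columns B2m, H2-K1, H2-D1, H2-T23, Tap1, Cd74, H2-Aa, H2-Ab1, H2-Eb1 and Ciita, with their levels by stage and cell type already known, so those levels are described here without a test. Hearts without a knockdown, called wild-type here, came from mice labelled Myh6/Esr1-Tomato (Myh6-Cre/Esr1 crossed with R26-tdTomato) at 4 ages, which were postnatal day 4 (P4), day 7 (P7), day 14 (P14) and day 28 (P28). Their mothers received tamoxifen in the days after delivery, which switched on the red reporter TDtomato through a Cre driven by Myh6, a cardiomyocyte (CM) gene. Further P28 hearts of the same strain had received a lentivirus after birth, with a hairpin directed at Jun (shJun) or one without a target (shNT). Single cells of dissociated hearts were placed in the wells of ICELL8 chips, and polyA RNA was read as unique molecular identifiers (UMIs), each standing for 1 captured molecule.

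The 18 samples were 18 chips, 2 each at P4, P7 and P14, 6 at P28, and 6 that mixed shJun and shNT cells. No wild-type chip mixed stages, so a difference between stages cannot be told apart from one between chips. P4 and P7 hearts were digested with a kit and older hearts by Langendorff perfusion, so digestion and age cannot be told apart either. By the animal names in the well tables, both P4 chips held cells of the same 2 mice, as did both P7 chips. P14 wells were named by cell fraction (CM or non-CM) and not by animal, so these names do not give the number of mice per P14 chip. P28 replicates 1 and 2 shared 2 mice, replicates 5 and 6 shared 2 others, and replicates 3 and 4 carried no animal name. An SD over such chips covers chips rather than mice. The knockdown cells came from 4 animals, 2 per hairpin, and shNT animal 1 shared its chips with shJun animal 1, as animal 2 did with animal 2. The 18 chips used 1 fixed barcode set, so 4890 of the 5051 barcodes among 23475 cell wells occurred on more than 1 chip and did not mark shared cells.

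After filtering, the knockdown chips kept 6993 cells, and the wild-type chips kept 2359 cells of P4, 2427 of P7, 1690 of P14 and 6351 of P28 hearts. Cells were clustered within each stage or knockdown animal and named "X-like" from marker genes, and UMIs were summed per chip (per animal in the knockdown) and class where at least 20 cells were present. Levels are given as CPM, the UMIs of a gene after scaling the nuclear UMIs of such a sum to 1000000. CM-like sums existed for both P4 chips (142 and 166 cells), P7 replicate 2 (23 cells), both P14 chips (298 and 144 cells) and P28 replicates 1, 3 and 5 (677, 600 and 657 cells). P7 replicate 1 held 16 CM-like cells and gave no sum. The 8 CM markers were all detected in each of these sums and together made up 36708 to 90381 CPM. The CM-like class held different cells at different stages. Of the 308 P4 cells, 202 were in a cluster led by Sln, Myl7, Myl1 and Nppa, and 4 genes known from atrial CMs (Sln, Myl7, Myl4 and Nppa, listed after the clusters were seen) summed to 25120 CPM there and 9722 CPM in the other P4 cluster. They summed to 602 CPM at P7, to 2.71 and 21.5 CPM in the P14 clusters and to between 32.2 and 586 CPM in the 5 P28 clusters, so atrial gene content and age cannot be told apart in the CM comparisons. P28 replicates 2, 4 and 6 held mostly non-CM cells. Some clusters of other classes were mixed or weakly marked, by the mean log2 fold of marker lists over the stage's other cells. Among 1087 endothelial-like P28 cells, 349 were in a cluster with endothelial markers at 0.855 and CM markers at 0.738. At P14, 146 of 542 were in a cluster at 0.723 and 0.374. Of 271 fibroblast-like P14 cells, 136 were in a cluster with fibroblast markers at 0.271. In the knockdown, over each animal's other cells, 186 CM-like cells of shNT animal 1 were in a cluster with CM markers at 0.325. In shJun animal 1, 107 CM-like cells had CM markers at 0.775 and mural markers at 0.564. In shJun animal 2, 254 endothelial-like cells had endothelial markers at 1.96 and fibroblast markers at 0.909. In shNT animal 2, 298 cells with endothelial markers at 0.849 were named erythroid-like. The part of these clusters in the levels below was not tested. The wild-type sums of the 4 main classes ranged from 259730 to 24821906 UMIs, and those of the knockdown from 2629239 to 69946839.

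Class I molecules carry peptides from inside nearly every nucleated cell to CD8 T cells. A heavy chain, in mice H2-K or H2-D among others, pairs with the small invariant chain B2m, and the peptide reaches it through the transporter formed by Tap1 and Tap2. Class II molecules carry peptides from material the cell has taken up to CD4 T cells, and are made chiefly by macrophages, dendritic cells and B cells. The alpha and beta chains (H2-Aa with H2-Ab1, and H2-Eb1 with its own alpha chain) are escorted by the invariant chain Cd74, and Ciita is the coactivator that turns the class II genes on. The gene of that other alpha chain, H2-Ea, carries a pseudogene name in the annotation used, so H2-Eb1 counts do not show that this pair was made. Interferon raises both sets. In the adult heart, resident macrophages are the main class II cells, whereas cardiomyocytes are known for very low class I levels.

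Of the 10 members, 7 lie on chr17 in the H2 region (GRCm38, the build also called mm10). H2-K1 spans chr17:33996017-34000347 on the minus strand, Tap1 chr17:34187553-34197225 on the plus strand, H2-Aa chr17:34282744-34287823 on the minus strand and H2-D1 chr17:35262730-35267499 on the plus strand. B2m spans chr2:122147686-122153083 on the plus strand and Ciita chr16:10480059-10528418 on the plus strand. Heavy-chain genes are near copies of each other, so the authors' counting could have moved reads among H2-K1, H2-D1, H2-T23 and their relatives, and those values are uncertain to that extent. Tap1 overlaps Psmb9 on the opposite strand, B2m overlaps Patl2, H2-Eb1 overlaps Gm20513, H2-T23 overlaps A930015D03Rik and Ciita overlaps Dexi, and without a stated strand setting their reads cannot be told apart.

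From RefSeq start sites (GRCm38.p6), a 250-base window upstream was read for 7 members, without Cd74, H2-Ab1 and Ciita. The windows of 3 members that the results turn on are shown 5′ to 3′ on each gene's own strand. Capitals mark matches to 4 short motifs, searched on both strands. The core of the interferon-stimulated response element (ISRE) was searched as GAAA, any 2 bases and GAAA again, the kappa-B site bound by NF-kB in the form that stands in capitals in the H2-K1 window, the core of the X2 box as TGACG, and the Y box as ATTGG.
B2m, chr2:122147437-122147686, plus strand: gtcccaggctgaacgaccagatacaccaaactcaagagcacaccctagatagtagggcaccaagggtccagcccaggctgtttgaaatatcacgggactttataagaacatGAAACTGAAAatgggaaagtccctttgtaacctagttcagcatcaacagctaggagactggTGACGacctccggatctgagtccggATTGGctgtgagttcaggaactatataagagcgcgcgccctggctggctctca
H2-K1, chr17:34000348-34000597, minus strand: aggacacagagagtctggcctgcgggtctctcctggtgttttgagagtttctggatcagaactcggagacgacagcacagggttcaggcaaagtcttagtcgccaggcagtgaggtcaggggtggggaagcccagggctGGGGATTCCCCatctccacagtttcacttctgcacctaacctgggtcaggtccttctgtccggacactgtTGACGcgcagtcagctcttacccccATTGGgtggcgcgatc
H2-Aa, chr17:34287824-34288073, minus strand: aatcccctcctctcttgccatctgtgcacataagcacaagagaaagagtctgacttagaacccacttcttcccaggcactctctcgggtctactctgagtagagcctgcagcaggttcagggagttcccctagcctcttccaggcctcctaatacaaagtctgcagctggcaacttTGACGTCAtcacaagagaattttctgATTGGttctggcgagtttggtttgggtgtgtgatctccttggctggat
The B2m window, that of the shared class I light chain, held the ISRE core from 139 to 130 bases before the start site, TGACG from 78 to 74 bases before it and ATTGG from 53 to 49 bases before it. H2-K1 held the kappa-B site, TGACG and ATTGG. H2-Aa held ATTGG and TGACG on each strand in 1 overlapping run, and neither of the other motifs. Over all 7 windows, the ISRE core was found in 2 (B2m and H2-T23), the kappa-B site in 2 (H2-K1 and H2-D1), TGACG in 5 and ATTGG in 7. Over 32851 windows of the same length, these motifs were found in 2.98%, 0.0304%, 17.8% and 33.8%, respectively. A match of letters is a description and not evidence of binding.

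B2m, the light chain of every class I molecule, was counted in all 4 main classes and had its lowest mean in CMs at every stage. In CM-like sums its level was 60.3 and 52.9 CPM on the P4 chips, 48.4 CPM at P7, 44.0 and 47.4 CPM on the P14 chips, and 373, 270 and 256 CPM on P28 replicates 1, 3 and 5. The earlier values lay within a narrow band, and every P28 value stood above all of them. The mean was 56.6 ± 5.23 CPM at P4 (SD, n = 2) and 299.7 ± 64.1 CPM at P28 (n = 3), 5.30 times higher, a log2 difference of 2.41. The SD of single chips in log2 within a stage, pooled over P4 and P28, was 0.253, which is not an error of that difference. On the TMM scale of the edgeR fit the difference was 2.76 (SE 0.46 over chips, which at P4 shared mice), and no test is read from it. Without the P4 cluster led by atrial genes, B2m at P4 was 115 and 64.0 CPM in 53 cells of each chip, still below every P28 value, and the log2 difference was 1.74. With classes called cell by cell it was 1.65.

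In fibroblast-like sums, B2m was 351 and 293 CPM at P4, 251 and 202 CPM at P7, 346 and 372 CPM at P14, and 1246, 1505 and 1410 CPM on P28 replicates 2, 4 and 6. As in CMs, P28 stood apart from all earlier chips, and the mean was 4.31 times that of P4. In endothelial-like sums, B2m was 524 and 339 CPM at P4, 377 and 333 CPM at P7, 462 and 726 CPM at P14, and at P28 ranged from 641 to 3321 CPM around a median of 1446 CPM over 6 chips. The lowest of these, in the 47 cells of replicate 3, lay below the higher P14 chip, so the groups overlapped. On replicates 1, 3 and 5, where the 8 macrophage markers summed to at most 83.6 CPM, endothelial B2m was 1572, 641 and 1321 CPM. Replicates 1 and 5 were above every earlier chip and replicate 3 was not. The part of macrophage RNA in these levels was not tested. Macrophage-like sums had the highest mean of these 4 classes at each stage. B2m there was 1250 and 993 CPM at P4, 1006 and 794 CPM at P7, 1472 and 1958 CPM at P14, and 1769, 3712, 5066 and 2523 CPM on P28 replicates 1, 2, 4 and 6. The P28 mean was 2.91 times that of P4, and replicate 1 overlapped P14.

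**Figure D1:**
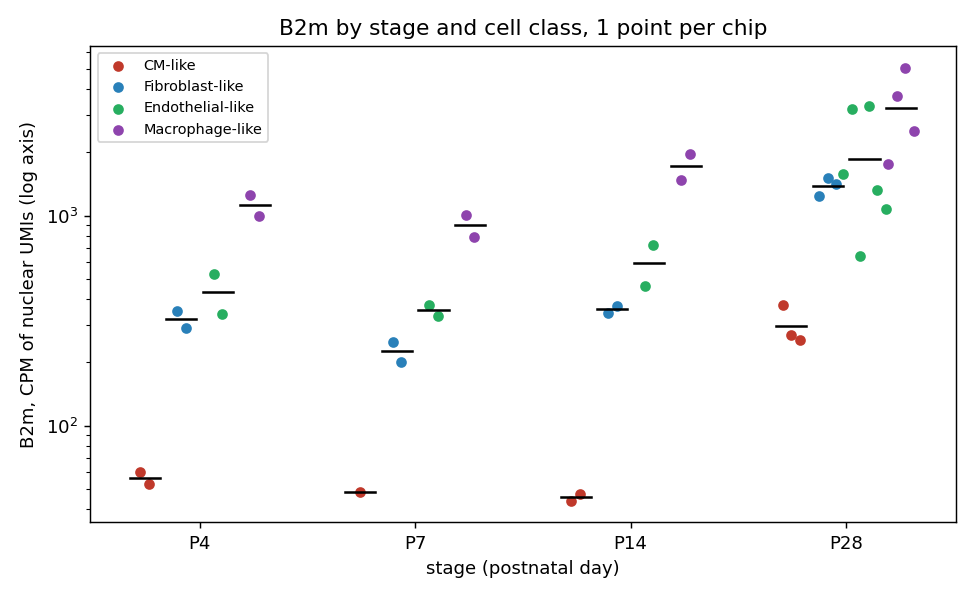
B2m level (CPM of nuclear UMIs, log axis) by stage, 1 point per chip with at least 20 cells of the class and a bar at the mean. CM-like sums sit between 44.0 and 60.3 CPM up to P14 and between 256 and 373 CPM at P28, and macrophage-like sums have the highest mean at each stage.

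H2-K1 and H2-D1 encode the classical class I heavy chains of the mouse. H2-K1 in CM-like sums was 15.95 and 10.7 CPM at P4, 1.70 CPM at P7, 18.6 and 13.4 CPM at P14, and 108, 72.6 and 62.8 CPM at P28. Its P28 mean was 6.10 times that of P4, with no overlap between P28 and earlier chips. H2-D1 was 14.8 and 11.1 CPM at P4 and 7.64 CPM at P7. It was already 38.0 and 40.3 CPM at P14, before 102, 58.5 and 65.6 CPM at P28. Unlike B2m, H2-D1 was therefore higher on both P14 chips than on any younger chip, but a single cell held 60.9% of its 69 UMIs on P14 replicate 2, and without that cell the level there was 15.8 CPM.

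The nonclassical heavy chain gene H2-T23 and the peptide transporter gene Tap1 were counted in few CMs. H2-T23 was 0.939 and 0.333 CPM at P4, 0 at P7, 2.07 and 0 CPM at P14, and 5.57, 4.07 and 3.16 CPM at P28. The 0 on P14 replicate 2 allowed up to 3 of its 1710592 UMIs. Tap1 was 6.76 and 0.333 CPM at P4, 29.7 CPM at P7, 0.920 and 0.585 CPM at P14, and 12.5, 3.22 and 15.01 CPM at P28. Its groups overlapped, and single cells set the high values: all 36 UMIs of P4 replicate 1 were in 1 cell, and the 35 UMIs of P7 were in 2 cells.

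In fibroblast-like sums H2-K1 was 25.1 and 7.38 CPM at P4 and 216, 225 and 199 CPM at P28. H2-D1 was 50.2 and 45.2 CPM at P4 and 358, 262 and 366 CPM at P28, with no overlap with any earlier chip for either gene. In endothelial-like sums H2-K1 was 30.3 and 50.4 CPM at P4, and at P28 ranged from 46.2 to 816 CPM around a median of 481 CPM. The lowest value came from the 25 cells of replicate 5. In macrophage-like sums H2-D1 was 785 and 796 CPM at P4 and 776, 1521, 1541 and 1110 CPM at P28, 1.56 times higher in the mean with overlapping groups, the smallest ratio of P28 to P4 of any class I heavy chain member in these 4 classes.

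**Figure D2:**
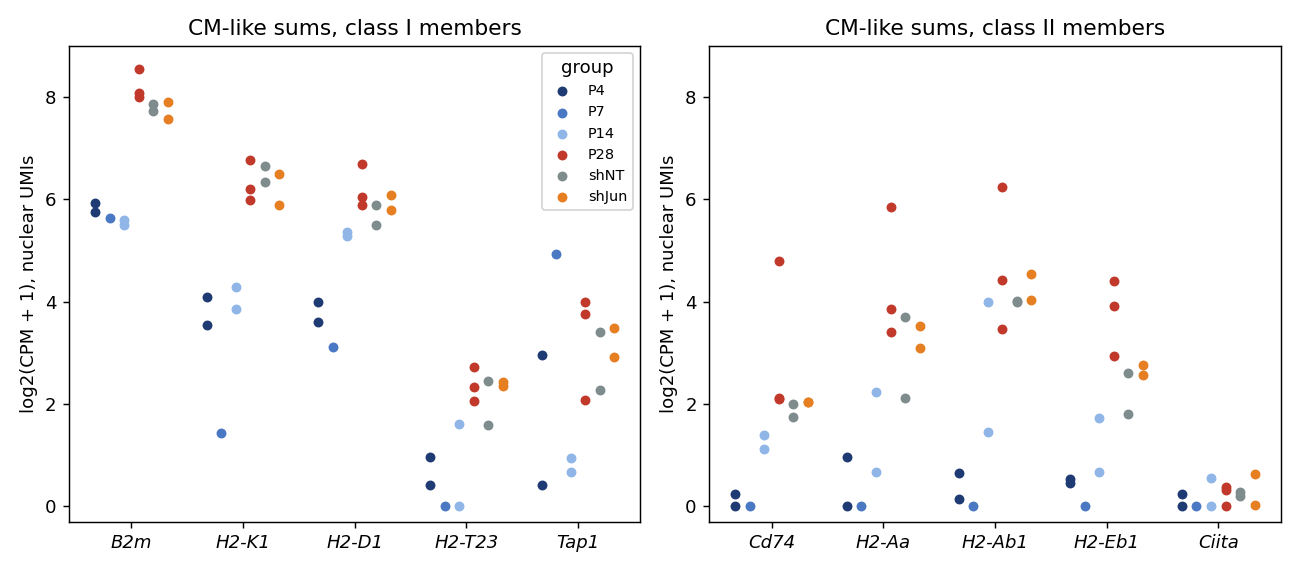
Levels of the 5 class I members (left) and the 5 class II members (right) in CM-like sums, as log2(CPM + 1), with 1 point per chip for stages and per animal for shNT and shJun. B2m, H2-K1 and H2-D1 lie above all earlier chips at P28, while Tap1 overlaps and Ciita reaches at most 0.555 CPM in any sum.

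Class II genes were abundant in macrophages, and their spread over cells differed by stage. H2-Ab1, the beta chain, was 984 and 362 CPM in macrophage-like sums at P4, 430 and 82.2 CPM at P7, 1329 and 129 CPM at P14, and 1402, 3922, 3218 and 1481 CPM on P28 replicates 1, 2, 4 and 6. Every P28 chip was above every earlier chip. The levels before P28 came from few cells: at P4, 12 of 120 macrophage-like cells held all 1933 UMIs of H2-Aa, H2-Ab1 and H2-Eb1. At P28, 635 of 828 cells held at least 1 such UMI. A single cell held 80.7% and 88.3% of the H2-Ab1 UMIs of the P4 chips, and 69.5% of those of P28 replicate 1.

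The alpha chain gene H2-Aa was 366 and 123 CPM at P4, 218 and 0 CPM at P7, 798 and 74.0 CPM at P14, and 816, 1852, 1563 and 539 CPM at P28, so that replicate 6 overlapped P14. H2-Eb1 was 36.6 and 28.3 CPM at P4 and 318, 677, 635 and 191 CPM at P28. Its P28 mean was 14.0 times that of P4, again with replicates 1 and 6 below the higher P14 chip at 348 CPM. Cd74, the invariant chain, was 64.4 and 11.7 CPM at P4, 106 and 7.48 CPM at P7, 104 and 123 CPM at P14, and 154, 318, 467 and 152 CPM at P28. Every P28 chip was above all earlier chips. Within P28, the 76 proliferating cells of 1 macrophage-like cluster, led by Mki67, had 442 CPM of H2-Ab1, and the 752 cells of the other had 3411 CPM, whereas B2m was 3769 and 4176 CPM.

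To set depth aside, each cell was thinned to 2000 UMIs and shallower cells were left out. At that depth a UMI of H2-Aa, H2-Ab1 or H2-Eb1 was seen in 7.02% of 114 macrophage-like cells at P4 (exact Clopper-Pearson 95% interval 3.08 to 13.4%), 5.33% of 75 at P7 (1.47 to 13.1%), 12.3% of 81 at P14 (6.08 to 21.5%) and 57.1% of 777 at P28 (53.6 to 60.7%). Unthinned, the share was 76.7% at P28. The intervals cover counting error only. The P28 chips differed, with 26.3% on replicate 1, 66.8% on replicate 2, 65.8% on replicate 4 and 25.2% on replicate 6, yet each exceeded the highest earlier chip at 15.6%. The shNT and shJun macrophages, also from P28 hearts, had 42.3% and 45.3%.

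The same share was 22.5% in endothelial-like cells at P28 (interval 19.9 to 25.2%), 25.9% in fibroblast-like cells (22.6 to 29.3%) and 4.87% in CM-like cells (3.92 to 5.97%). At P4 it was 0.511%, 1.59% and 0.649%, respectively. Erythroid-like cells, which should lack class II, had 18.1% of 72 cells at P28 (9.98 to 28.9%), and their unthinned median depth was 16393.5 UMIs against 9375.5 in CM-like, 7497 in endothelial-like and 10177.5 in fibroblast-like cells. These erythroid-like cells came nearly all from replicates 4 and 6, whereas the CM-like cells came from replicates 1, 3 and 5. The pooled endothelial and fibroblast shares lay within the erythroid interval, the CM share below it and the macrophage share above it. By chip, the endothelial share was 44.9%, 33.6% and 17.6% on replicates 2, 4 and 6, and 5.84%, 2.13% and 4.35% on replicates 1, 3 and 5. The fibroblast share was 36.3%, 27.9% and 9.17% on replicates 2, 4 and 6. The erythroid-like cells came nearly all from other chips than the CM-like cells, so whether the CM share exceeded background was not tested. Endothelial and fibroblast shares on replicate 2, and the endothelial share on replicate 4, lay above the erythroid interval. Macrophage marker levels moved with them: the 8 macrophage markers summed to 34.3 and 36.7 CPM in endothelial-like sums at P4, and to 1137, 771 and 630 CPM on P28 replicates 2, 4 and 6, but 83.6, 73.7 and 7.70 CPM on replicates 1, 3 and 5. In those sums H2-Ab1 was 5.68 and 0.604 CPM at P4, and at P28 309, 176 and 53.7 CPM on the former chips and 20.6, 37.8 and 30.8 CPM on the latter. Their part in the class II levels was not tested.

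**Figure D3:**
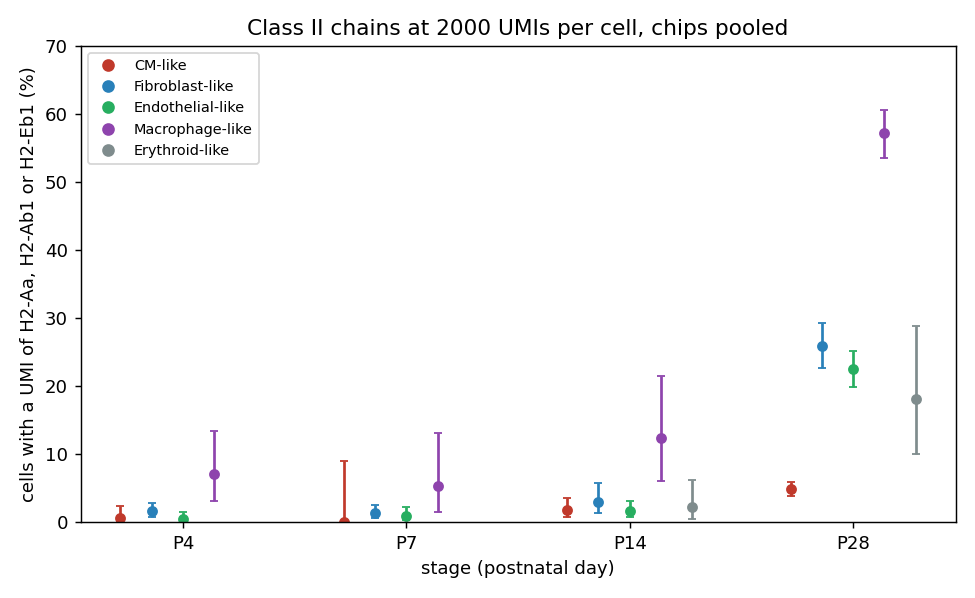
Share of cells (%) with a UMI of H2-Aa, H2-Ab1 or H2-Eb1 after thinning to 2000 UMIs, by stage and class with chips pooled, and bars for exact 95% intervals. Macrophage-like cells are at 7.02% at P4 and 57.1% at P28, and endothelial-like and fibroblast-like cells at P28 overlap the erythroid-like cells at 18.1%.

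In CM-like sums, class II levels at P28 were uneven. H2-Ab1 was 74.9, 10.1 and 20.5 CPM on P28 replicates 1, 3 and 5, and 1 cell held 51.5% of the UMIs on replicate 1. At P4 it was 0.563 and 0.111 CPM, and at P14 14.96 and 1.75 CPM, so P14 replicate 1 overlapped P28. H2-Aa was 57.1, 9.55 and 13.4 CPM at P28, H2-Eb1 20.2, 6.69 and 14.0 CPM, and Cd74 26.8, 3.26 and 3.36 CPM, all above their earlier chips. At P4 these 3 genes had 5, 6 and 1 UMIs in 308 cells. Ciita, the class II coactivator, had at most 0.460 CPM in any wild-type CM-like sum, and its column was missing from the matrix of P28 replicate 5.

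Class II levels of P28 CMs were highest in 1 of 5 CM-like clusters. Its 100 cells, led by the chemokine genes Ccl4 and Cxcl2 with Rgs1 and Atf3 beside CM genes, had 237 CPM of H2-Ab1, 211 CPM of H2-Aa and 1836 CPM of the summed macrophage markers. The other 4 clusters had between 4.396 and 37.9 CPM of H2-Ab1 and between 56.7 and 146 CPM of macrophage markers. Without those 100 cells, H2-Ab1 was 23.7, 6.30 and 5.29 CPM and H2-Aa 12.8, 4.93 and 2.65 CPM on replicates 1, 3 and 5. Macrophage markers were thus highest where class II was highest, and their part in the result was not tested.

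B2m in P28 CMs was less tied to that cluster. It was 779 CPM in the 100 cells, and 288, 241, 230 and 416 CPM in the other 4 clusters of 423, 740, 584 and 97 cells. The largest clusters partly coincided with chips. Of the 423 cells 369 were from replicate 1, of the 740 cells 494 from replicate 3, and of the 584 cells 564 from replicate 5. The 423 cells had a median of 4187 UMIs and were led by Sp1 and Gm11410, with CM markers at a mean log2 fold of 1.12. The 97 cells at 416 CPM had 4859 CPM of summed fibroblast markers, against 353 to 603 CPM in the other 4 clusters, and Dpt, Ogn and Gas1 were among their leading genes. The part of fibroblast RNA in that level was not tested. The B2m level of each P28 CM-like cluster exceeded 87.4 CPM, the highest value of a P4 CM-like cluster. Without the 100 cells B2m was 290, 249 and 237 CPM on replicates 1, 3 and 5, all above every earlier chip. Cells of P28 with a TDtomato UMI, a mark of the Myh6 lineage, had 275 CPM (1287 cells) and those without had 364 CPM (657 cells, at a lower median depth). At P4 the values were 57.3 and 33.9 CPM.

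In CM-like sums, marker levels of other cell types were higher at P28 than at P4, as B2m was. Macrophage markers at P7 and P14 lay between their P4 and P28 levels, and the part of other types' RNA in the B2m level was not tested. The summed macrophage markers were 12.8 and 13.1 CPM at P4, 50.1 CPM at P7, 52.9 and 27.5 CPM at P14, and 384, 131 and 154 CPM at P28. The endothelial markers summed to 304 and 343 CPM at P4 and 1173, 879 and 784 CPM at P28, and the fibroblast markers to 344 and 372 CPM at P4 and 1305, 462 and 666 CPM at P28. No macrophage, endothelial or fibroblast marker was at 0 in the P4 and P28 sums. CM-like cells thinned to 2000 UMIs were also kept only if they held no UMI of 8 marker lists (endothelial, fibroblast, macrophage, T, B, NK, granulocyte and dendritic cells). At that depth a cell can hold RNA of another type without a UMI of its markers, so the filter does not set such RNA aside. B2m was then 35.7 and 20.8 CPM at P4 (90 cells), 62.5 and 23.3 CPM at P14 (83 cells), and 129, 148 and 97.2 CPM at P28 (243 cells). P28 stayed above the earlier chips at a lower level than in all thinned cells, where it was 410, 290 and 223 CPM. With no UMI of the 6 immune lists alone, it was 316, 263 and 192 CPM at P28 and 45.9 and 40.5 CPM at P4. The thinned values at P4 rest on 2 to 12 UMIs a chip.

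**Figure D4:**
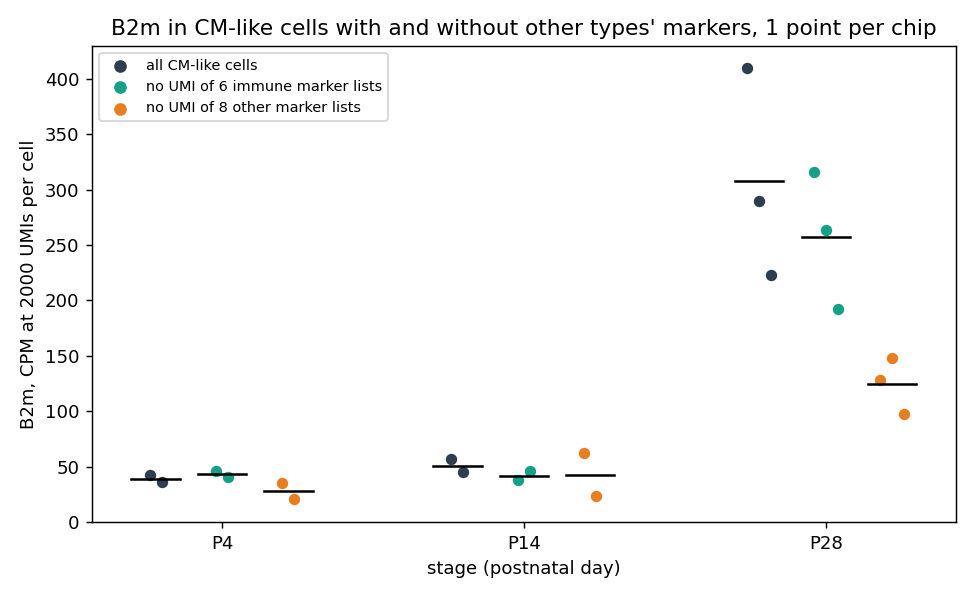
B2m level (CPM after thinning to 2000 UMIs per cell) in all CM-like cells and in those without a UMI of 6 immune or 8 other marker lists, 1 point per chip with a bar at the mean. In cells without a UMI of the 8 lists, P28 chips sit between 97.2 and 148 CPM, above the P4 chips at 35.7 and 20.8 CPM.

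Negative-control wells, called empty wells here, were read beside the cells. Whether they received fluid of the cell suspension is not stated in the study's methods, so they need not hold its free RNA. On P28 replicates 1, 3 and 5, the 15 empty wells held 2876 UMIs and 0 of B2m, which allows up to 0.2 B2m UMIs per well, while CM-like cells held on average 3.66, 11.2 and 1.97, with medians of 1, 6 and 0. So few UMIs cannot show whether B2m was present in those wells at the CPM of the CM-like sums. The 194 P28 CM-like cells with the most B2m UMIs, of 1944, held 59.4% of their B2m UMIs, and the median cell of replicate 5 had none, like the empty wells. Over all 90 empty wells, B2m had 45 UMIs in 20 wells, none of them on the P4, P7 or P14 chips, with 5, 4 and 3 UMIs on P28 replicates 2, 4 and 6 and 0, 8, 1, 3, 5 and 16 UMIs on the knockdown chips. Pooled over the 51790 UMIs of all empty wells this was 869 CPM, above the CM-like level at P28, and the part of such RNA in any CM-like level was not tested. At 2000 UMIs, 6.82% of P4 CM-like cells had a B2m UMI (interval 4.27 to 10.2%, 308 cells), 10.3% at P7 (2.87 to 24.2%), 6.56% at P14 (4.44 to 9.29%) and 32.6% at P28 (30.4 to 34.8%, 1787 cells). Unthinned, the shares at P4 and P28 were 27.3% and 61.5%, at median depths of 28555.5 and 9375.5 UMIs. Erythroid-like cells had 7.25% at P14 and 26.4% at P28 (16.7 to 38.1%), the latter nearly all from replicates 4 and 6 rather than the CM chips, and the CM shares at both stages were within their intervals. By this share alone, P28 CMs could not be told apart from erythroid-like cells of the same stage.

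The members were read beside the rest of the transcriptome. In CM-like sums, 7 of 10 members had every P28 sum above every earlier one, namely B2m, H2-K1, H2-D1, H2-T23, Cd74, H2-Aa and H2-Eb1. This held for 3 of 10 in endothelial-like, 7 of 10 in fibroblast-like, and 2 of 10 in the sums of macrophage-like cells. Among genes at a mean of at least 10 CPM, the shares were 3.9%, 0.251%, 4.43% and 1.35%, respectively. The members were counted at any level, and H2-T23 in CM-like sums, for example, stayed under 10 CPM. In the edgeR fits, 9 members passed the filter on low counts, all but Ciita, and their median log2 difference of P28 and P4 was 3.14 in CM-like, 3.64 in endothelial-like, 1.93 in macrophage-like and 3.54 in fibroblast-like sums. The median over all genes tested was 0.08, 0.06, 0.00 and 0.00. Since the members were chosen with this pattern known, nothing is read from these counts.

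To see whether the pathway beyond the members changed, 53 further genes were tested between P28 and P4 with edgeR's quasi-likelihood test over all genes with Benjamini-Hochberg adjustment. These genes too were chosen with earlier results of these data known, so they are not an independent set. The p-values measure only the spread between chips, some of which shared mice. In CM-like sums 4 of 45 tested genes rose and 0 fell, where 2.41% of 15666 genes rose and 1.43% fell. Their median log2 difference was 1.18, against 0.08 over all genes, and 36 of 45 were above 0. Of the wider class I list (antigen processing and further heavy chains) 1 of 21 rose, of the wider class II list 2 of 13, of interferon signalling 1 of 8, and of the constitutive proteasome 0 of 3, with median log2 differences of 0.85, 3.10, 1.42 and 0.10.

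The 4 listed genes that rose in CM-like sums had few UMIs at P4. Ctss, the protease that trims the invariant chain, was 0.939 and 0.555 CPM at P4 and 40.5, 22.1 and 12.04 CPM at P28 (log2 difference 5.41, SE 0.98, edgeR adjusted p = 0.0032). Cd83, a surface protein that stabilises class II, was 0.375 and 0.222 CPM at P4 and 51.2, 7.25 and 7.70 CPM at P28 (6.44, SE 1.18, edgeR adjusted p = 0.0034). H2-M3, a nonclassical heavy chain gene, had 0 UMIs at P4 and 5.27, 2.09 and 4.34 CPM at P28, at least 14.3-fold higher against a floor of 3 UMIs over the P4 group (edgeR adjusted p = 0.026). Irf1, an interferon-induced activator of class I genes, was 2.63 and 0.555 CPM at P4 and 21.99, 7.65 and 13.6 CPM at P28 (3.57, SE 0.95, edgeR adjusted p = 0.038), and was named after its values were seen. In all 4, every P28 chip exceeded both P4 chips.

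With classes called cell by cell, 0 listed genes rose, and Ctss had a log2 difference of 2.40, Cd83 of 5.01 and Irf1 of 2.99. Without the 100 cells of the chemokine-led cluster 2 of the 4 calls remained, Ctss (log2 difference 4.001) and Cd83 (5.43). H2-M3 (7.27) and Irf1 (2.99) then had edgeR adjusted p = 0.058 and 0.10. Without the P4 cluster led by atrial genes Ctss and Cd83 were again called, and H2-M3 and Irf1 had edgeR adjusted p = 0.11 and 0.076. Macrophage markers were higher in the P28 sums, as given above, and their part was not tested. Without either P4 chip 0 were called. The count was 1 without P28 replicate 1, 2 without P28 replicate 3 and 7 without P14 replicate 2.

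In fibroblast-like sums 2 of 46 listed genes rose and 0 fell, where 1.02% of 16062 genes rose and 1.72% fell. Ifngr1, the ligand-binding chain of the interferon gamma receptor, was 124 and 86.9 CPM at P4 and 350, 297 and 514 CPM at P28 (log2 difference 2.02, SE 0.51, edgeR adjusted p = 0.036). P14 replicate 2 held 829 CPM, above all of these. Cd86, a costimulatory ligand of antigen-presenting cells, had 1 UMI at P4 and 14.5, 11.1 and 2.18 CPM at P28, a ratio of 205 with a counting interval of 36.2 to 8178 (edgeR adjusted p = 0.040). The macrophage markers in these fibroblast sums were 25.6 and 22.8 CPM at P4 and 632, 584 and 280 CPM at P28, and their part was not tested. Neither call held without either P4 chip or without P28 replicate 4, where 0 were called, and the count was 5 without either P14 chip and 1 without either P7 chip, P28 replicate 2 or P28 replicate 6.

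In endothelial-like sums edgeR called 0 of 47 listed genes, where 0.0917% of 15263 genes rose and 0.367% fell. At an unadjusted p under 0.05, 15 were higher and 1 lower, and DESeq2 called 8. Their median log2 difference was 0.94. In macrophage-like sums edgeR called 0 of 44, where 0.0799% of 11264 genes rose and 0.107% fell. There 4 were higher and 1 lower at an unadjusted p under 0.05, DESeq2 called 0, and the median was 0.63.

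To find genes with patterns like the members', levels were compared over 20 class and stage sums as log2(CPM + 1). Among 9264 genes in no list at a mean of at least 10 CPM, those closest to B2m were Tmsb4x, an actin-binding peptide gene (Pearson r = 0.929), Bst2 (0.928), which tethers viruses at the cell surface, Btg2 (0.928), Birc3 (0.927) and Junb (0.923). Bst2 in CM-like sums was 2.51 CPM at P4 and 12.1 CPM at P28. Closest to H2-Aa were Fcgr3 (0.957) and Fcgr2b (0.956), both receptors for antibody, Ccl9 (0.956), Cyth4 (0.952) and Folr2 (0.9499), all leukocyte genes. Among the members, r with B2m was 0.945 for H2-D1, 0.921 for H2-K1 and 0.539 for Tap1, and r with H2-Aa was 0.976 for H2-Ab1, 0.963 for Cd74 and 0.935 for H2-Eb1. The sums share chips and differ in depth, and these correlations only describe them.

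To ask whether a hairpin against Jun given to young hearts altered the members at P28, shJun and shNT animals were compared, a contrast the choice of genes did not use. Jun itself, the targeted AP-1 factor, was 52.5 and 62.7 CPM in the CM-like sums of the shNT animals and 28.9 and 31.5 CPM in those of the shJun animals. Both shJun values were below both shNT values, and the log2 difference was -1.03 (SE 0.22, edgeR adjusted p = 0.999, 0.0029 before adjustment, and DESeq2 adjusted p = 0.038). In the other classes the log2 differences of Jun were smaller than their SEs, at -0.05 (SE 0.62) in endothelial-like, -0.34 (SE 0.79) in macrophage-like and 0.36 (SE 0.60) in fibroblast-like sums.

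No member passed the test in any class, for 10 members tested in CM-like and macrophage-like and 9 in endothelial-like and fibroblast-like sums, and none had an unadjusted p under 0.05. Over all genes, edgeR called 0% in each class, with 656, 597, 556 and 565 genes at an unadjusted p under 0.05 in CM-like, endothelial-like, fibroblast-like and macrophage-like sums, and DESeq2 called 36, 113, 72 and 95. With the animals that shared chips fitted as pairs, edgeR called 13 genes in CM-like sums and 0 in the other classes, none of them a member. B2m in CM-like sums was 211 and 232 CPM with shNT and 190 and 239 CPM with shJun, a log2 difference of -0.14 (SE 0.19). The groups overlapped, and all 4 animals were above the highest wild-type value before P28. The B2m difference was -0.31 (SE 0.46) in endothelial-like, 0.11 (SE 0.53) in macrophage-like and 0.12 (SE 0.52) in fibroblast-like sums. Its direction changed in each of the 4 classes in at least 1 of the other ways of processing.

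Over all members tested, log2 differences lay between -0.39 and 0.62 in CM-like, -1.49 and 1.48 in endothelial-like, -1.49 and 2.19 in macrophage-like and -0.84 and 1.15 in fibroblast-like sums, with SEs from 0.19 to 1.59. H2-Ab1 in macrophage-like sums was 1235 and 2294 CPM with shNT and 2333 and 1901 CPM with shJun, so the groups overlapped. The largest difference, that of Ciita in macrophages, rested on 1 cell of shJun animal 2 with 207 of its 225 UMIs. With 2 animals per hairpin, 0 calls do not show that the members did not change. Of the 53 further pathway genes, edgeR called 0 of 48 tested in CM-like, 0 of 47 in endothelial-like and 0 of 46 in each of the other classes. At an unadjusted p under 0.05, 3 were higher in CM-like sums, 4 higher and 1 lower in those of fibroblasts, and none in the remaining classes.

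**Figure D5:**
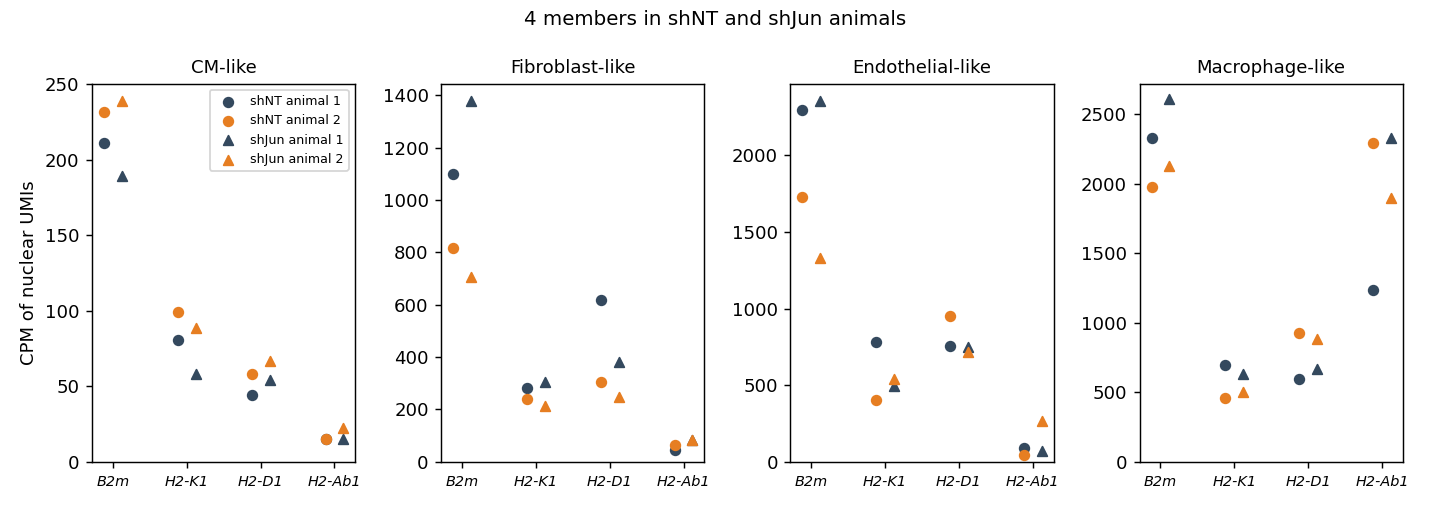
Levels (CPM of nuclear UMIs) of B2m, H2-K1, H2-D1 and H2-Ab1 in 4 cell classes of the shNT and shJun hearts, 1 point per animal, coloured by the pair of animals that shared chips. The hairpins overlap for B2m in each class, with 190 and 239 CPM with shJun and 211 and 232 CPM with shNT in CM-like cells.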

How the data were processed

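Single heart cells were dispensed into nanowell chips and sequenced, 1 chip per sample. The authors trimmed reads with cutadapt, aligned them with STAR 2.5.2b to mm10, assigned them with featureCounts (Subread 1.4.6-p1, per the submitters' processing notes) and collapsed UMIs, and deposited raw UMI counts per well and gene. The strand setting is not given in the sources used here. The deposited count tables were used unscaled, with 35843 gene columns, 34938 of them matched to a symbol.

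Cells with at least 500 genes and a log10 UMI total within 2 SD of their set were kept. The 35 mitochondrial genes were left out of sums. Cells were clustered per stage or knockdown animal (10 principal components, 30 neighbours, Leiden resolution 0.8 or 1) without the members and listed pathway genes. A cluster was named from a marker list if 3 or more of its markers were found in 20% of the cluster's cells and their log2 fold averaged 0.2 or more. These naming limits were set after the clusters were seen. No doublet caller was run, since wells were imaged, and cells with markers of several classes were left out as an alternative. Counts were summed per chip or animal and class.

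Sums were tested with edgeR 4.0.16 (filterByExpr, TMM scaling, quasi-likelihood test, R 4.3.3) at an adjusted p of 0.05. P28 was compared with P4 in a fit of all stages, and shJun with shNT over 4 animals. DESeq2 1.42.0 and the other alternatives are given at the end. shNT and shJun animals of the same number shared chips per the well tables, and their deviations correlated at 0.334, -0.00646, 0.112 and 0.0828 in CM-like, endothelial-like, fibroblast-like and macrophage-like sums. Tests were checked on simulated data, where few changes were recovered in several comparisons, so that a count of 0 calls does not show absence of change. In some comparisons unchanged genes made up a larger share of the calls than the threshold of 0.05 allows. Single calls, above all those near the threshold, are therefore uncertain. The number of cells and UMIs limits precision, and intervals and floors cover counting error only.

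The members and lists were chosen with earlier results of these data known. Named genes were the 10 members, Jun, up to 3 listed genes per fit and direction with the smallest p past the threshold, and the 5 genes most like B2m and H2-Aa. Promoter windows were RefSeq's (GRCm38.p6).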

Additional observations from a re-analysis of the deposited data

Results flagged for a closer look

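Ciita, the class II coactivator gene, was 5.8 CPM in the T-like sum of P28 replicate 4, and lay far from the other 3 T-like sums of P28, which were between 0 and 0.785 CPM. The gap to the nearest sum was 0.865 of the group's range. The value rested on 2 UMIs in 1 cell. Among 30 groups of sums examined in this way this was 1 case, and chance gives about 1 in 20.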

How the results depend on the processing

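The B2m difference of P28 and P4 in CM-like sums (log2 2.41) was 1.65 with classes called cell by cell, 2.76 on the TMM scale 2.14 in thinned cells with no UMI of 8 other lists and 1.74 without the P4 cluster led by atrial genes, and 2.22 to 2.51 when each chip was left out. The count of listed genes that rose in CM-like sums (4) was 0 with classes called cell by cell, 9 with DESeq2, 7 with no filter on low counts, 2 without the chemokine-led cluster, 2 without the P4 cluster led by atrial genes and 0 to 7 with a chip left out. In endothelial-like sums (0) it was 1 without cells of several classes, 8 with DESeq2, 2 with no filter, 1 with sums per animal and 2 with P28 replicates 2, 4 and 6 alone. In fibroblast-like sums (2) it was 0 cell by cell, 4 with at most 5000 UMIs of any cell, 6 with DESeq2 and 0 to 5 with a chip left out. In macrophage-like sums it stayed at 0 in all settings, and the count of listed genes that fell stayed at 0 in all 4 classes. The cause of these moves was not tested. The settings without a cluster, with 8 lists absent and with P28 replicates 2, 4 and 6 alone were chosen after seeing the data.

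Of the named genes, Ctss lost its call in 3 settings, Cd83 in 4, H2-M3 in 7, Irf1 in 10, Ifngr1 in 5 and Cd86 in 8, with no change of direction. Over all genes, calls between P28 and P4 ranged from 62 to 1149 in CM-like (602 in the main test), 11 to 499 in endothelial-like (70), 116 to 936 in fibroblast-like (440) and 12 to 138 in macrophage-like sums (21).

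For shJun against shNT, no member was called in any setting. The replicate block, with animals that shared chips as pairs, gave 13 calls over all genes in CM-like sums and 0 in the other classes, and changed no other call. Over all settings there were 0 to 436 calls in CM-like, 0 to 113 in endothelial-like, 0 to 75 in fibroblast-like and 0 to 95 in macrophage-like sums. The B2m difference changed sign in CM-like sums with at most 5000 UMIs of any cell (0.046) and without shJun replicate 1 (0.0031), in endothelial-like sums without cells of several classes (0.012) and without shJun replicate 2 (0.093), in fibroblast-like sums without shJun replicate 1 (-0.41) and without shNT replicate 2 (-0.039), and in macrophage-like sums cell by cell (-0.11) and without cells of several classes (-0.11). With an animal left out it ranged from -0.32 to 0.0031 in CM-like, -0.82 to 0.093 in endothelial-like, -0.41 to 0.49 in fibroblast-like and 0.051 to 0.14 in macrophage-like sums. Unthinned shares of cells with a UMI were 27.3% and 61.5% for B2m in CM-like cells at P4 and P28, and 76.7% for class II chains in macrophage-like cells at P28. Depth limited Ciita, Tap1 and H2-T23 in CMs, where 1 cell could set a value.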

Other observations

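Classes with fewer cells carried the members at levels not compared above. T-like sums of P28, whose cluster was led by the T cell genes Trbc2, Ccl5 and Cd8b1 and also held the B-lineage genes Ly6d and Iglc2, had 633, 2349, 5228 and 1461 CPM of B2m on replicates 1, 2, 4 and 6, and 182, 1072, 255 and 1139 CPM of H2-Ab1. Granulocyte-like sums of P28 had 2440, 2231 and 2293 CPM of B2m on replicates 2, 4 and 6, a narrower range than in T-like cells, and 2232, 1023 and 1490 CPM of H2-D1. Mural-like sums had 127 and 224 CPM of B2m at P4 and 214 and 199 CPM at P7.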
